A study of Equus caballus with 4 samples.

Results

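The genes described here encode the channels, pumps and binding proteins that release calcium in muscle cells and take it up again. They are RYR1, ITPR2, CACNA1S, TRDN, JPH2, CASQ1, CASQ2, SLN, ATP2A1 and ATP2A2, whose symbols are given in lower case below. Members were the non-control probes of the horse array whose gene name equals 1 of these symbols, which gave 11 probes of 5 genes (*atp2a1*, *atp2a2*, *casq1*, *trdn* and *itpr2*) among 43603 probes. The description column of the same array files names a further 22 probes of 4 genes (*ryr1*, *cacna1s*, *casq2* and *jph2*) whose gene name cell holds a transcript identifier. These were added after the files had been opened and are kept apart in the counts. *Sln*, which encodes sarcolipin, a small inhibitor of the calcium pump, was not analysed here, since neither column gave a probe for it.

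Gene expression was measured in equine satellite cells, the stem cells of muscle, cultured from the semitendinosus muscle of 6-month-old colts. On day 3 of differentiation, cells that had been incubated for 24 h with 125 nM gamma-oryzanol (GO), a mixture of sterol and triterpene esters of ferulic acid from rice bran oil, were compared with control cells. GO was dissolved in dimethyl sulfoxide, and the control medium held the same dose of this vehicle (0.04 μl/ml). The 4 arrays of 1 slide each held RNA of GO-treated cells labelled with Cy5 and RNA of control cells labelled with Cy3, with a RIN of at least 9.2. The labels call the arrays biological replicates, but the sources used here do not say whether they came from separate horses, and the methods state that the best of several cell isolates was chosen. The p-values therefore measure the spread between these arrays. The dyes were never swapped, so a dye effect on a probe and the effect of GO cannot be told apart.

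In a muscle fiber, the voltage sensor of the plasma membrane, whose pore subunit is encoded by *cacna1s*, opens the ryanodine receptor RYR1 in the membrane of the sarcoplasmic reticulum, the calcium store of the cell. Inside the store calsequestrin, encoded by *casq1* and *casq2*, holds calcium near the receptor, with triadin (*trdn*) as anchor, and junctophilin (*jph2*) ties the store to the plasma membrane. The pumps encoded by *atp2a1* and *atp2a2* return calcium to the store, and the receptor encoded by *itpr2* is a second kind of release channel, opened by inositol trisphosphate. Most of these proteins are built up while myoblasts turn into fibers.

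The log2 ratio below is the processed Cy5 signal (GO) over the processed Cy3 signal (control) of a probe within 1 array, after the dye normalization of the authors. Only probes well above background on all 4 arrays, in the control or the GO channel, were tested. A change had to reach a limma adjusted p of 0.05 or less and a fold change of 1.3 or more, which is a log2 ratio of 0.38 in size. Well above background were 63.5 to 68.9% of probes in the control channel and 57.4 to 67.0% in the GO channel. Between arrays, the ratios of the 26833 tested probes, which are not independent of each other, correlated at 0.45 to 0.68. The labelled cell type was checked with marker lists. All 13 measured genes of differentiating muscle, such as *myog*, and all 4 of satellite cells and myoblasts were well above background on the 4 arrays, as were all 5 of fibroblasts, all 4 of smooth muscle, 3 of 4 of heart muscle and 2 of 5 of leukocytes. Of the 5 endothelial, 3 adipocyte and 4 Schwann cell and neuron markers, 0 were.

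Among the 11 probes named by gene symbol, all of which were tested, 1 had changed and 10 had not passed both thresholds. The changed probe was the brighter of 2 for *itpr2* and was higher in GO-treated cells. For comparison, 8.94% of all tested probes had changed, 3.33% with a higher and 5.61% with a lower value in GO-treated cells. With the probes named by description, 24 of 33 probes were tested and 5 had changed, 4 of them lower in GO-treated cells, namely the probe of *casq2* and 3 probes of *ryr1*. By the brightest tested probe of each gene, 1 of 8 genes had fallen (*casq2*) and 1 had risen (*itpr2*), beside 5.5% and 3.36% of 9636 named genes, 8.86% in all. Leaving out array 1 raised the count of changed probes from 5 to 9 and that of genes from 2 to 4, and leaving out array 2, 3 or 4 gave 2 probes and 2 genes each. The median log2 ratio was -0.13 over the 11 probes named by symbol and -0.16 over all 24, against 0.00 over all probes tested. Several probes of *atp2a1* and *ryr1* overlap, so these genes weigh more than once. By gene the median was -0.07 over the 5 named by symbol and -0.17 over the 8 tested under either name.

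The sequences of the probes show how far they are separate measurements. Each probe is 60 bases long, and its position is that given in the array files on EquCab1, where the chromosome Un holds unplaced sequence. A probe that covers 60 bases of the genome lies within 1 exon of its transcript model, and one with a longer span crosses an intron. The calsequestrin probes and the pair of *itpr2* probes are shown first, because *casq2* and *itpr2* carry the 2 changes by gene. Capitals in the *casq1* probe mark the triplets GAT and GAC, which code for aspartate and make up 14 of its 20 triplets. The *casq2* probe holds no such run.
casq2 probe, EquCab1 chr5:30606405-30607456, minus strand, with an intron: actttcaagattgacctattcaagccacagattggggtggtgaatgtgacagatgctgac
casq1 probe, EquCab1 chrUn:172315975-172316034, plus strand: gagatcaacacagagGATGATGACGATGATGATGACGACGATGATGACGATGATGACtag
itpr2 probe at base 7769 of its transcript model, EquCab1 chr6:52084437-52084496, minus strand: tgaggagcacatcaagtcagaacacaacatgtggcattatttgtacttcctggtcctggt
itpr2 probe at base 7830, EquCab1 chr6:52084376-52084435, minus strand: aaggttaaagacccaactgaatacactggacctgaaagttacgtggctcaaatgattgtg

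The *ryr1* and *atp2a1* probes come in runs that overlap, so that several probes read nearly the same stretch of RNA. Of 17 *ryr1* probes, the 5 nearest to the end of the transcript share 22 bases, given in capitals in 3 of them below. Of 6 *atp2a1* probes, 5 are shifted by 1 base each and share 56 bases, and the first and the last of the run are shown.
ryr1 probe at base 14865, EquCab1 chr10:9601187-9601391, plus strand, with an intron: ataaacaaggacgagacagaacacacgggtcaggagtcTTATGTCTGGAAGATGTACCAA
ryr1 probe at base 14885, EquCab1 chr10:9601207-9601411, plus strand, with an intron: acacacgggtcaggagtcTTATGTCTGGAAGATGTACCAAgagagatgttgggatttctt
ryr1 probe at base 14903, EquCab1 chr10:9601370-9601429, plus strand: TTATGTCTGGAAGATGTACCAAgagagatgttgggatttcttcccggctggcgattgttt
atp2a1 probe at base 2998, EquCab1 chr13:7298070-7298553, plus strand, with an intron: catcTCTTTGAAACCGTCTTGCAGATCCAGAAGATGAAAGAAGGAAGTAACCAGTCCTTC
atp2a1 probe at base 3002, EquCab1 chr13:7298074-7298557, plus strand, with an intron: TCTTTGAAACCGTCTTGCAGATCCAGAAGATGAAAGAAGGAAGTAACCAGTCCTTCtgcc

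The release channel *ryr1* had negative ratios at the 3′ end of its transcript and ratios near 0 at its 5′ end. Its 17 probes lie on 1 transcript model of chromosome 10 in 3 groups, 3 probes at bases 1187 to 1868, 8 at bases 2845 to 7415 and 6 at bases 14587 to 14903. All 6 probes of the last group had a negative ratio on every array, with means from -0.45 to -0.33 and adjusted p from 0.0197 to 0.0372 in limma, and 3 of them also passed the fold threshold. The largest was the probe at base 14903, whose log2 ratios were -0.15, -0.60, -0.55 and -0.49 on arrays 1 to 4 (mean -0.45 ± 0.20, SD, n = 4, adjusted p of limma 0.0197). Its signal was 270, 384, 259 and 248 in control cells and 243, 254, 177 and 177 in GO-treated cells. Array 1 stood closer to 0 than the other three, and the ranges of both groups of cells overlapped.

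The brightest *ryr1* probe, at base 14885, overlaps the one at base 14903 and just missed the fold threshold. Its signal was 303, 394, 306 and 286 in control cells and 284, 284, 216 and 232 in GO-treated cells, so that every control value exceeded every GO value. The log2 ratios were -0.09, -0.47, -0.50 and -0.30, with a mean of -0.34 ± 0.19 (SD, n = 4), at a limma adjusted p of 0.0361. Without array 1 its mean was -0.43 (adjusted p of limma 0.0246), past both thresholds. Without array 2, 3 or 4 it passed neither, with adjusted p of 0.137, 0.127 and 0.075 in limma.

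In contrast, the 3 probes of the first group had means of -0.09 to -0.03, and 0 of them passed the adjusted p (0.275 to 0.829 in limma). Their signals lay between 35.2 and 100.2 in control cells and between 33 and 100.8 in GO-treated cells. Those of the last group were 169 to 410 and 126 to 306, and an effect of dimness on the ratios was not tested. The mean of the last group minus that of the first was -0.05, -0.38, -0.47 and -0.38 on arrays 1 to 4. This difference of -0.32 ± 0.18 (SD, n = 4) had the same sign on all 4 arrays. That alone fixes its two-sided exact permutation p at 0.13. Since 4 arrays can give none smaller, this test cannot decide whether the groups differ. The groups were set after the values had been seen, and the brightness of different probes cannot be compared. None of the 8 probes in between was tested, because their control signals of 3.92 to 26.9 were near background, and their mean ratios of -0.76 to -0.17 include ratios of exactly 0 where the software had replaced a signal near background. The plot of *ryr1* probes by position shows the 3 groups.

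**Figure D1:**
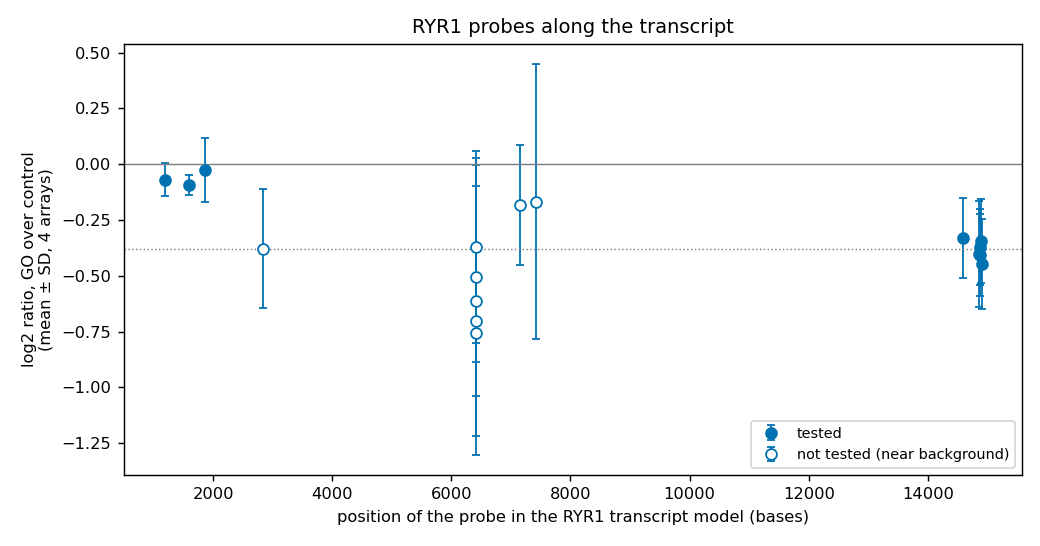
Mean log2 ratio of each *ryr1* probe (y axis, GO over control, bars are SD over 4 arrays) against its position in the transcript model in bases (x axis). Filled circles were tested and open circles were too near background, and the dotted line is a fold change of 1.3. The 3 probes at bases 1187 to 1868 lie near 0 and the 6 probes from base 14587 on lie between -0.45 and -0.33.

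The other release channel, *itpr2*, was the single member that passed both thresholds with a higher value in GO-treated cells. At base 7769 its log2 ratios were 0.39, 0.44, 0.43 and 0.48, a mean of 0.44 ± 0.04 (SD, n = 4). The fold change was 1.35 and the limma adjusted p was 0.00585. The signal was 32.2, 21.6, 19.8 and 19.9 in control cells and 42.1, 29.3, 26.8 and 27.8 in GO-treated cells. Each array went the same way, although the highest control value lay above 3 of the GO values.

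The second *itpr2* probe, at base 7830, shares no bases with the first and gave a smaller difference. Its log2 ratios were 0.36, 0.16, 0.14 and 0.20, with a mean of 0.22 ± 0.10 (SD, n = 4), at a limma adjusted p of 0.0603. Both probes were dim and well above background on all 4 arrays in the control channel but on 3 in the GO channel. After normexp background correction and loess the mean of the first probe was 0.09 (adjusted p of limma 0.214), and after median centring without lowess it was 0.25 (0.0453). This gene was picked by the study from the same arrays, so its count here is not independent evidence. The study also measured it by qPCR, which is not among the data used here.

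The voltage sensor *cacna1s* was near the threshold at 1 of 3 probes. At base 5183, in a probe that crosses an intron, the log2 ratios were -0.02, -0.45, -0.40 and -0.70, with a mean of -0.39 ± 0.28 (SD, n = 4), at a limma adjusted p of 0.0515. Control signals were 202, 331, 203 and 189, and GO signals 200, 243, 154 and 116. As in *ryr1*, array 1 was the one closest to 0, and without it the mean was -0.52 (adjusted p of limma 0.0238). Without array 2, 3 or 4 the adjusted p of limma rose to 0.157, 0.140 and 0.123. The other two probes, at bases 2062 and 3282 of a second transcript model, had means of -0.12 and -0.02, and in both array 4 had a positive ratio (0.23 and 0.55) and the other arrays negative ones. Their control signals lay between 27.6 and 60.5.

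Of the proteins at the junction of store and plasma membrane, *trdn* showed no difference beyond its spread and *jph2* could not be tested. The *trdn* probe on chromosome 10 (65477222 to 65477281) had log2 ratios of -0.06, -0.32, 0.14 and -0.04 and a mean of -0.07 ± 0.19 (SD, n = 4, adjusted p of limma 0.583). On array 1 both of its channels were bright (166 for control and 159 for GO), whereas the control signals on the other arrays were 36.5, 33.8 and 30.5 and the GO signals 29.3, 37.3 and 29.6. The single *jph2* probe was not well above background in either channel on any array, with signals of 2.45 to 3.84 for control and 3.53 to 7.03 for GO. Its ratio was set to 0 on 3 arrays by the software, and no direction can be given for it.

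The largest fall among the members was that of *casq2*, the calsequestrin of heart and slow muscle. Its 1 probe, on chromosome 5, had signals of 5071, 6136, 6051 and 5372 in control cells and of 3870, 3738, 3085 and 3342 in GO-treated cells. The lowest control value lay above the highest GO value. The log2 ratios were -0.39, -0.72, -0.97 and -0.68, with a mean of -0.69 ± 0.24 (SD, n = 4). This is a 1.61-fold lower level, and the limma adjusted p was 0.00756.

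The fast muscle calsequestrin *casq1* was lower on each array by less, and the change did not pass either threshold. Its log2 ratios were -0.05, -0.20, -0.29 and -0.17, with a mean of -0.18 ± 0.10 (SD, n = 4, adjusted p of limma 0.0974). Control signals were 214, 181, 149 and 137 and GO signals 207, 158, 122 and 122. The probe is the repeat of aspartate triplets printed above. On all tested probes, a negative ratio on all 4 arrays was found in 21.5%, and among the 24 tested members in 10, of which 6 are the last group of *ryr1*.

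The pumps gave no change past the thresholds. All 6 probes of *atp2a1*, the pump of fast fibers, had negative means of -0.25 to -0.10, with adjusted p of 0.145 to 0.447 in limma, and in all of them array 1 was positive and array 2 negative. The brightest one, on chromosome 13 (7297714 to 7297773) and apart from the overlapping run, had log2 ratios of 0.37, -0.23, -0.28 and -0.49, and a mean of -0.16 ± 0.37 (SD, n = 4). Its control signals were 1315, 2836, 1558 and 1486 and its GO signals 1699, 2416, 1283 and 1059. Without array 1 its mean was -0.33 (adjusted p of limma 0.046), a fold change below 1.3. Without array 2, 3 or 4 the adjusted p of limma was 0.653, 0.685 and 0.846. The 5 probes of the run, which share 56 bases, had control signals of 34.8 to 111 and GO signals of 25.9 to 95.4.

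The *atp2a2* probe on chromosome 8 (21312939 to 21312998) detects the pump of slow muscle, heart and most other cells. Its log2 ratios were 0.04, 0.08, -0.13 and 0.17, and its mean of 0.04 ± 0.13 (SD, n = 4, adjusted p of limma 0.703) was smaller than the spread between arrays. Signals were 4027, 3063, 4573 and 3539 in control cells and 4135, 3247, 4177 and 3992 in GO-treated cells, and they overlapped.

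**Figure D2:**
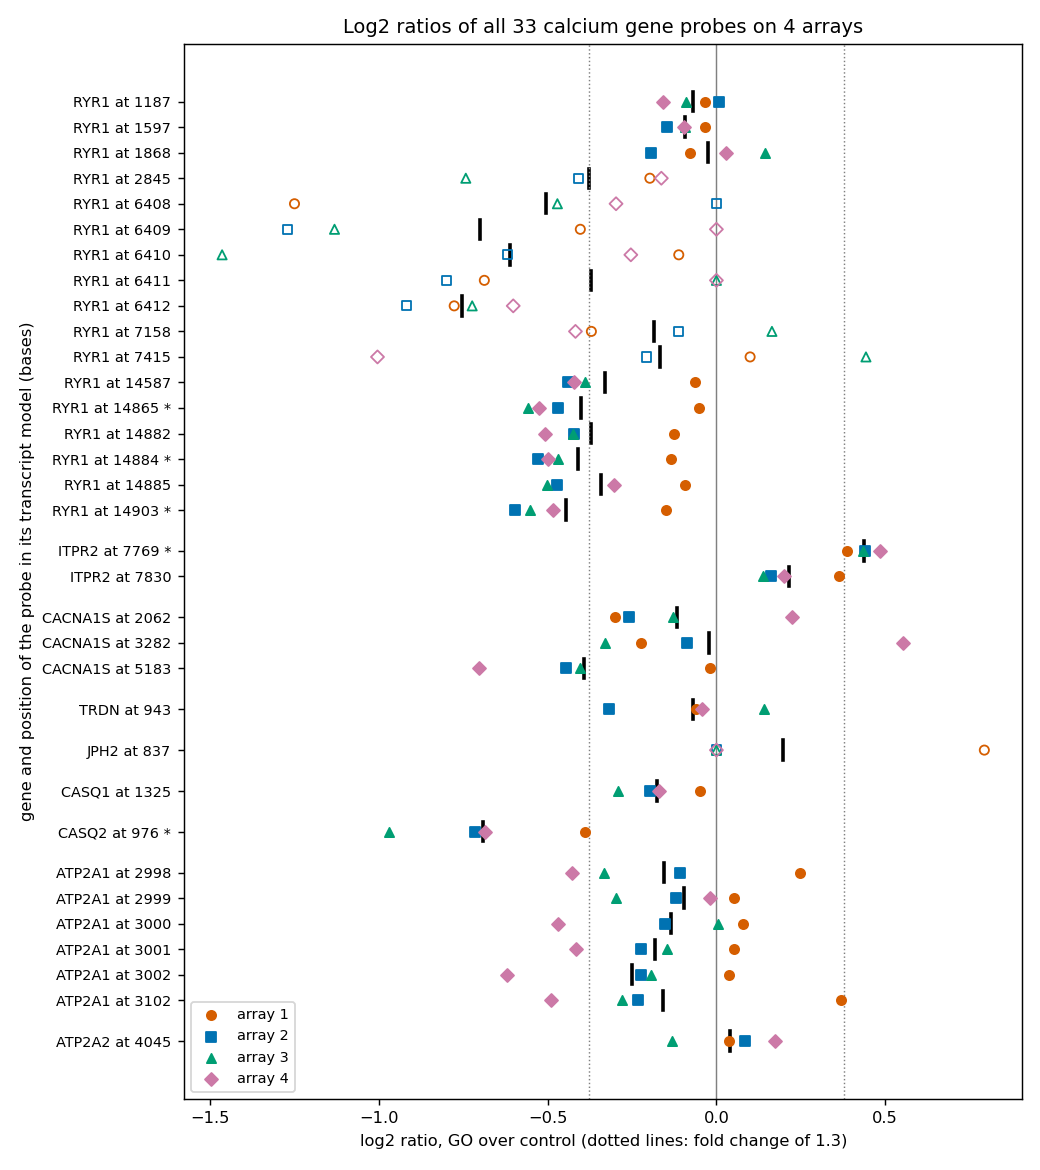
Log2 ratio (x axis, GO over control) of each of the 33 probes (y axis, by gene and position in the transcript model in bases) on arrays 1 to 4, shown by colour and shape, with the mean as a black bar. Filled symbols were tested, open ones were too near background, dotted lines are a fold change of 1.3 and an asterisk marks the 5 probes past both thresholds. Array 1 is the highest of the 4 in 17 of 24 tested probes. These include all 6 of *atp2a1* and all 6 of the last *ryr1* group, most of which overlap and are not separate observations. The share over all tested probes was not examined.

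**Figure D3:**
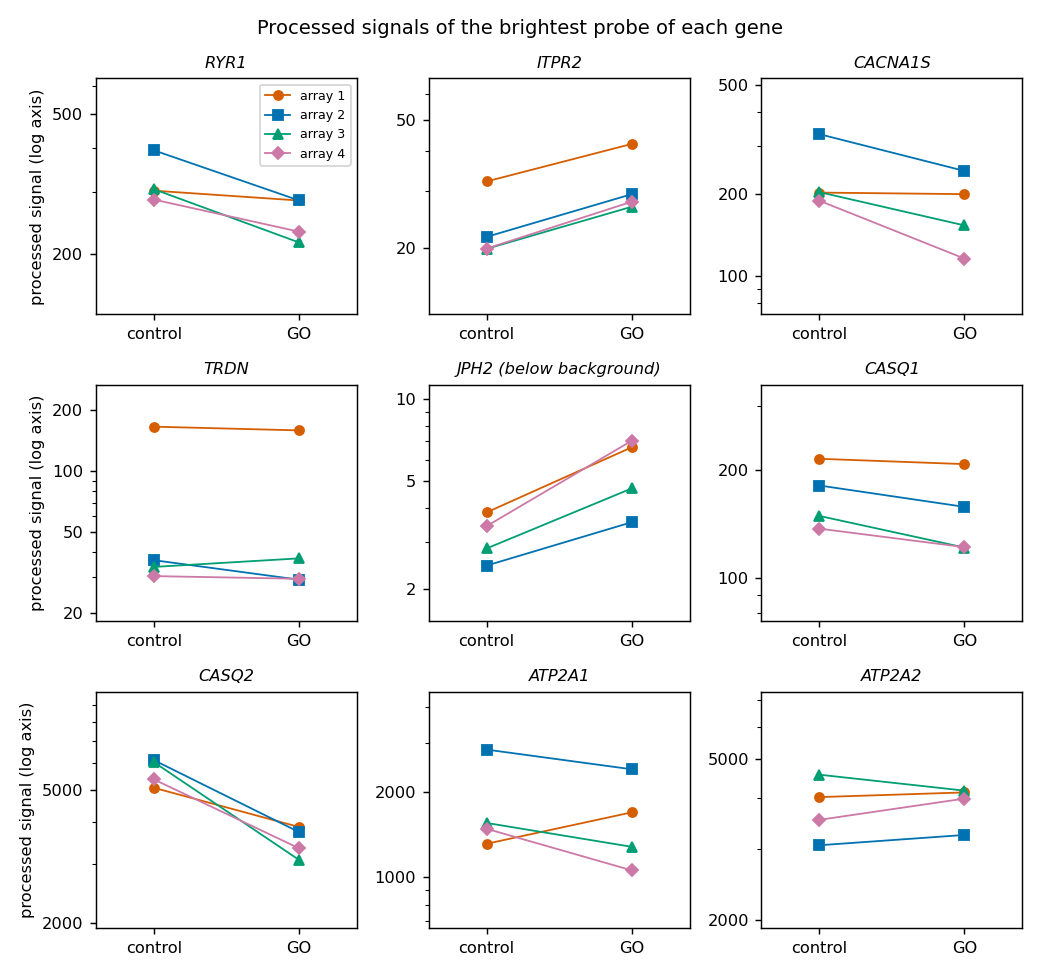
Processed signal (y axis, log scale, a range of its own in each panel) of the brightest probe of each gene in control and GO-treated cells, with a line for each array. The lines of *casq2* fall and those of *itpr2* rise on all 4 arrays, and *jph2* was below background in both channels.

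Ordered by the mean log2 ratio of the brightest probe, the 8 tested genes ran from *casq2* (-0.69) through *cacna1s* (-0.39), *ryr1* (-0.34), *casq1* (-0.18), *atp2a1* (-0.16), *trdn* (-0.07) and *atp2a2* (0.04) to *itpr2* (0.44). Neighbours in this order from *cacna1s* to *atp2a2* lay closer to each other than the larger of their SDs. The median of the 8 genes was -0.03 on array 1 and -0.27, -0.29 and -0.24 on arrays 2 to 4. The 13 genes of differentiating muscle had medians of -0.34, -0.53, -0.51 and -0.46 on arrays 1 to 4, and the 4 of satellite cells and myoblasts -0.29, -0.64, -0.80 and -0.74. Of these lists 8 and 3 genes had fallen, among them *myog*, the regulator of myoblast differentiation (-0.40), and *myh3*, the embryonic myosin heavy chain (-0.83). *Myh2*, a further myosin heavy chain among the 8 (-1.11), was well above background on 3 arrays in the GO channel. It was thus tested only through the control channel, where it is higher. The part of both lists in the values of the calcium genes was not tested. Fewer differentiated cells and less RNA per cell cannot be told apart in these samples. Summed over its genes, the signal of differentiating muscle was 323460 to 432728 in control and 213812 to 305299 in GO-treated cells. That of fibroblasts was 157754 to 223835 and 163753 to 209782. These sums rest mostly on a few bright probes, *actc1*, *myh3* and *acta1* for muscle and *col3a1* and *dcn* for fibroblasts. They do not measure the amount of a cell type. Of the 5 fibroblast genes 1 had risen, the dim *pdgfra*, a growth factor receptor (0.87 ± 0.48, SD, n = 4, adjusted p of limma 0.0198), and of the 4 smooth muscle genes 1 had fallen, *actg2*, an actin (-0.47 ± 0.05, adjusted p of limma 0.0055). None of the 3 tested heart muscle genes passed both thresholds.

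The genes with ratios nearest to those of *itpr2*, by the root mean square difference over the 4 arrays among 9015 named genes, were *blvrb*, *steap1* and *alcam*, at differences of 0.050, 0.050 and 0.055 on the log2 scale. For *casq1*, the lowest gene among those named by symbol, they were *prmt5*, *serhl2* and *ash1l* (0.020, 0.020 and 0.022). For *casq2*, which was added after its values were seen, they were *fam110b*, *cst6* and *pdzd2* (0.044, 0.059 and 0.080).

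Beyond the members, a list of 81 other calcium-handling genes was examined, of which 75 were on the array and 60 were tested by their brightest probe. Of these, 8 were lower and 2 higher in GO-treated cells, beside 5.5% and 3.36% of named genes. The median log2 ratio of the 60 was -0.14, against 0.00 over named genes. The count of 10 became 12, 3, 6 and 9 when arrays 1, 2, 3 and 4 were left out in turn. Among the other release channels and the partners of release channels, 5 of 16 tested genes were lower, 0 were higher and the median was -0.20. They included *srl*, which encodes sarcalumenin, a calcium-binding protein of the store (-0.62 ± 0.21), *itpr3*, a further inositol trisphosphate receptor (-0.53 ± 0.35), *s100a1*, a calcium sensor that binds RYR1 (-0.49 ± 0.18), and *tmem38b*, a cation channel of the store (-0.48 ± 0.14, all SD, n = 4). Their adjusted p in limma were 0.00787, 0.0358, 0.0128 and 0.00881.

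Single arrays of these genes can be read in the same way as those of the members. *Itpr3* had log2 ratios of -0.07, -0.46, -0.79 and -0.81, with control signals of 345, 448, 408 and 367 and GO signals of 328, 326, 236 and 210 that did not overlap. *Itpr1* had -0.41, -0.31, -0.12 and 0.08 and a mean of -0.19 ± 0.22 (SD, n = 4, adjusted p of limma 0.178). The 3 inositol trisphosphate receptor genes thus had means of 0.44 (*itpr2*), -0.19 (*itpr1*) and -0.53 (*itpr3*), 1 past both thresholds in each direction. *Ryr3*, the ryanodine receptor of other tissues and of young muscle, was not well above background in either channel on any array.

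Among the regulators of uptake, phospholamban (*pln*), an inhibitor of the pump encoded by *atp2a2*, was lower in GO-treated cells. Its brightest probe, on chromosome 10 (61492783 to 61492842), had log2 ratios of -1.26, -0.59, -0.57 and -0.46 and a mean of -0.72 ± 0.36 (SD, n = 4, adjusted p of limma 0.0172). Control signals were 59.2, 40.8, 33.4 and 30.6 and GO signals 24.8, 27.1, 22.5 and 22.2, which did not overlap, and the GO channel was well above background on 3 arrays. This probe was therefore tested only through the control channel, where it is higher, and a filter on both channels leaves it out. Here array 1 was the most negative, unlike in *ryr1* and *atp2a1*. Of 8 *pln* probes 6 were tested, and 5 of these were past both thresholds. All read the same gene and went through the same filter, so this count is not separate support.

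Genes of store-operated entry, by which an empty store opens a channel of the plasma membrane, did not pass the thresholds in any of 5 tested cases. The store sensor *stim1* had a mean of -0.14 ± 0.08 and its channel *orai1* one of 0.26 ± 0.19 (SD, n = 4). Their limma adjusted p were 0.134 and 0.0711. *Orai1* was higher on all 4 arrays and *stim1* lower on all 4. None of the 6 genes of mitochondrial calcium transport passed both thresholds under their current symbols. Nor did any of the 6 of the voltage sensor or the 4 of export over the plasma membrane. The probe with the older symbol *ccdc109b*, matched to the mitochondrial subunit gene *mcub* after its values were seen, was higher in GO-treated cells (0.47 ± 0.07, SD, n = 4, adjusted p of limma 0.00561).

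Among proteins that bind calcium in the store or cytosol, *rcn3*, which encodes a reticulocalbin of the secretory pathway, was higher (0.55 ± 0.31, adjusted p of limma 0.0253), and *calr*, which encodes calreticulin, had a mean of 0.07 ± 0.20 (0.626). In the calcineurin and calmodulin kinase group, which reads calcium signals, 2 of 14 tested genes were lower and 1 was higher. *Camk2d*, a calmodulin-dependent kinase, fell (-0.38 ± 0.06), as did *rcan1*, a regulator of calcineurin (-0.41 ± 0.20), and *nfatc4*, a transcription factor that calcineurin activates, rose (0.41 ± 0.19, all SD, n = 4). Their adjusted p in limma were 0.00905, 0.0245 and 0.0234.

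**Figure D4:**
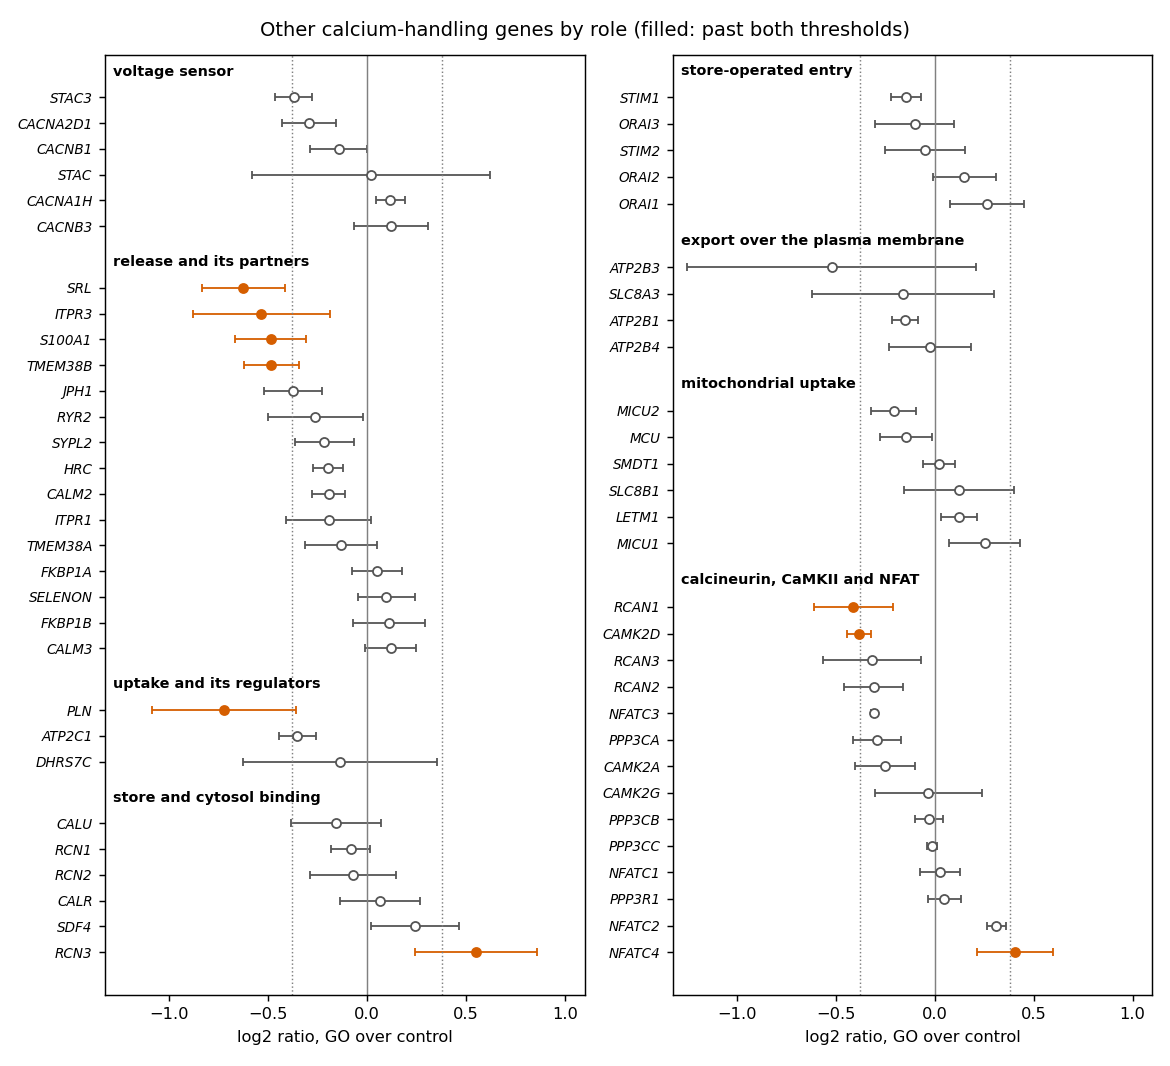
Mean log2 ratio (x axis, GO over control, bars are SD over 4 arrays) of the brightest tested probe of each of 59 other calcium-handling genes, by role. Filled circles passed both thresholds, and dotted lines are a fold change of 1.3. The heading mitochondrial uptake stands for mitochondrial calcium transport in either direction. Of the 9 filled genes 4 stand among the release channels and their partners, all below 0.

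**Figure D5:**
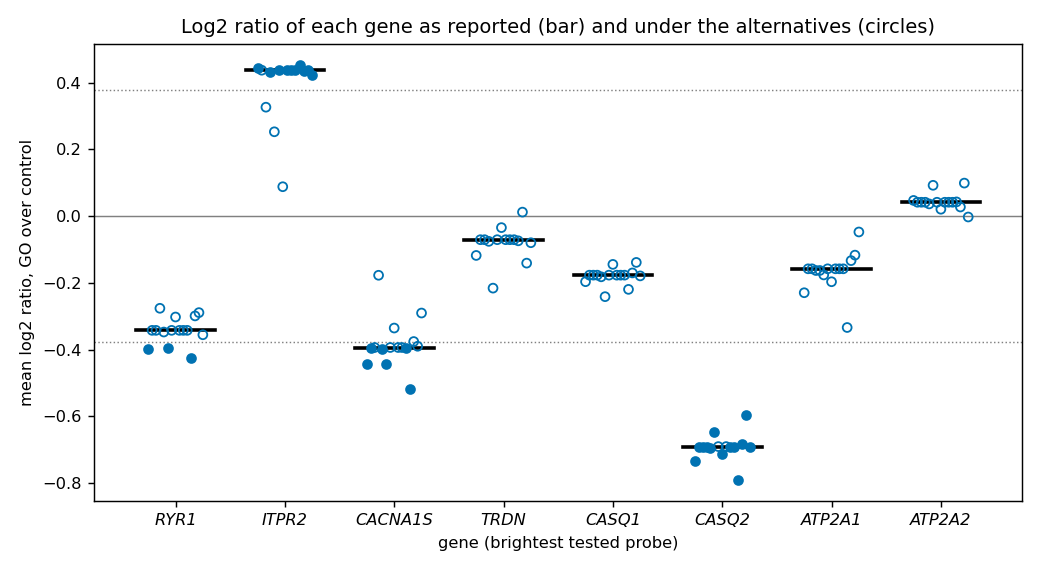
Mean log2 ratio (y axis, GO over control) of the brightest probe of each gene as reported (bar) and under 14 or 15 alternative ways of processing (circles, filled where both thresholds were passed). Dotted lines are a fold change of 1.3. *Casq2* stays between -0.79 and -0.60, and *itpr2* ranges from 0.09 to 0.45. The circles include the authors' table of the series, whose values equal those reported.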

How the data were processed

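Two-color horse arrays were examined, 4 in all. The file headers give Feature Extraction 10.10.1.1 as the software of the authors, who applied its linear and lowess dye normalization. For each channel the authors deposited intensity values, raw, background-subtracted and processed. Their deposited log10 ratios divide processed Cy5 by processed Cy3, and the authors' table of the series held equal values for 180880 of 180880 spots (tolerance 1e-09). The log10 values were converted to log2. Spots of a probe were averaged without outlier spots, and 1417 control spots were removed. The 4 ratios were tested against 0 with limma (3.58.1) in R (4.3.3), lmFit on an intercept and eBayes, two-sided, with Benjamini-Hochberg adjustment over 26833 probes. The prior had an SD of 0.14 (log2) and 3.60 degrees of freedom. The test was checked on simulated ratios. The methods name GeneSpring and do not name the test. Tables and figures used data.table (1.17.8), Python (3.11.15), pandas (2.3.3) and matplotlib (3.10.9). The number of arrays limits the precision.

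The pairing of the channels within an array comes from the design. Deviations of both channels from their group means had a correlation of 0.48 to 0.86 within an array and -0.54 to 0.24 between arrays. Deviations from a mean over the same arrays cancel out, which lowers the values between arrays, so part of this contrast was fixed in advance.

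The genes, the lists and the marker genes were chosen with earlier results of these data known. Named were all members with every probe, other calcium genes past both thresholds (1 is counted but not reported here by name), *stim1*, *orai1*, *pln*, *ryr3*, *itpr1*, *itpr3* and *calr*, and the 3 genes nearest to the highest and to the lowest member. Members and other genes were also named by the description column. For *ryr1*, *cacna1s*, *casq2* and *jph2* this was added after the files had been opened. A gene's value is that of its brightest tested probe. Probe positions are those of the array files on EquCab1, and probe sequences are the 60 bases given there. Alternatives were other background corrections, centrings, filters, tests and probe rules, and leaving out each array.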

Additional observations from a re-analysis of the deposited data

Results flagged for a closer look

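Of 24 tested probes, 2 had 1 array far from the other three, both of *ryr1* and both on array 1. At base 14587 (A_69_P005386) the log2 ratio was -0.062 on array 1 and -0.44, -0.39 and -0.42 on arrays 2 to 4, and the gap was 0.863 of the whole range. At base 14884 (A_69_P002593) array 1 had -0.14, whereas arrays 2 to 4 had -0.53, -0.47 and -0.50, a gap of 0.849 of the range. Gaps above 0.829 were picked out, and chance does so in about 1 in 20 sets of values. Both probes lie in the last group of the same transcript, so they do not count as separate observations.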

How the results depend on the processing

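The count of 1 changed member probe named by symbol, and that of 1 such gene, became 0 after normexp and loess, after median centring without lowess, with both channels above background, and with the channels as separate samples without the replicate block. The gene count was also 0 with the mean over the probes of a gene. With probes named by description, the counts were 5 probes and 2 genes. These 5 probes became 1 after normexp and loess, 8 after median centring without lowess, 2 without the filter on dim probes, 1 by the plain one-sample test, 9 with array weights, 1 with the channels as separate samples and 8 at the adjusted p alone. The 2 genes became 1 after normexp and loess, without the filter, by the plain test and with separate channels, and 4 with array weights. Without 1 array, the counts by symbol stayed at 1, those with description probes ranged from 2 to 9 probes and 2 to 4 genes, the 10 other calcium genes from 3 to 12, and all 2399 changed probes from 1566 to 2430.

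The 10 other calcium genes became 4 after normexp and loess, 2 without the filter, 1 by the plain test, 0 with separate channels and 18 at the adjusted p alone. Over all probes these settings gave 1297, 908, 147, 370 and 4859. With both channels above background the 10 genes became 9 and the count over all probes 2066. Pairing by array is part of the ratio, and without this replicate block the probe count fell to 370.

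The sign changed in *atp2a2* without array 4 and in *trdn* without array 2. Leaving out 1 array gave -0.0027 to 0.099 for *atp2a2* and -0.14 to 0.012 for *trdn*, neither past a threshold. *Itpr2* lost its call in 4 of 14 alternatives. These were normexp and loess (0.09), median centring without lowess (0.25), separate channels (0.44, adjusted p of limma 0.413) and the mean of both probes (0.33). The filter on both channels is not among the 14, because the *itpr2* probe was not tested under it and so has no call there. *Casq2* lost its call in 2 of 15, without the filter (adjusted p of limma 0.0668) and by the plain test (0.0967). The alternatives of each gene include the authors' table of the series, whose values are equal. For genes with 1 tested probe, such as *casq2*, they also include a mean over that probe. The agreement of these settings was fixed in advance. *Cacna1s* passed both thresholds in 6 of 15 alternatives and *ryr1* in 3 of 15. *Casq1*, *atp2a1*, *trdn* and *atp2a2* passed both in 0. The causes were not tested. Dim probes, such as those of *itpr2* and the middle of *ryr1*, carry the least signal over background.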
